A study of Homo sapiens with 2 samples.

Results

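The expression of 9 genes was followed: the alpha-arrestins TXNIP, ARRDC1, ARRDC2, ARRDC3 and ARRDC4, the transcription factor genes MLXIP (MondoA) and MLX, and the beta-arrestins ARRB1 and ARRB2. They were chosen by symbol, and all 9 were found among the 22585 gene symbols of the tables, each as a single row. All 9 also passed the minimum of 20 counts over both libraries, as did 14239 genes in all. The data comprised 2 RNA sequencing libraries of 786-O cells, an established human kidney cancer line known for the loss of the VHL tumour suppressor. One culture was kept in medium with 25 mM glucose and the other in medium with 0 mM glucose, and the labels give no genotype change or drug for either. The sources used here give neither the time without glucose nor the meaning of 2 short terms in the labels, LucF (25 mM) and LucG (0 mM).

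MondoA is a glucose-sensing transcription factor that works as a dimer with MLX. When glucose 6-phosphate accumulates, the dimer enters the nucleus and binds carbohydrate response elements, which are pairs of E-box-like motifs a few bases apart, and TXNIP is its best known target. TXNIP and the other alpha-arrestins are adaptors that bring ubiquitin ligases of the NEDD4 family to membrane proteins. TXNIP also binds thioredoxin and promotes the endocytosis of the glucose transporter GLUT1. Beta-arrestins share the arrestin fold but act on phosphorylated G protein-coupled receptors, which they uncouple from G proteins and bring to clathrin-coated pits.

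The 250 bases before a RefSeq start are shown for TXNIP and its paralog ARRDC4, both textbook targets of MondoA. These 2 genes were chosen for display after their values were seen. The sequences are from RefSeq on GRCh38.p14, read 5′ to 3′ toward the gene, and capitals mark every match to CACGNG on either strand. The TXNIP stretch lies at chr1:145996580-145996829 on the minus strand of that build, and the ARRDC4 stretch at chr15:97960453-97960702 on the plus strand.
TXNIP: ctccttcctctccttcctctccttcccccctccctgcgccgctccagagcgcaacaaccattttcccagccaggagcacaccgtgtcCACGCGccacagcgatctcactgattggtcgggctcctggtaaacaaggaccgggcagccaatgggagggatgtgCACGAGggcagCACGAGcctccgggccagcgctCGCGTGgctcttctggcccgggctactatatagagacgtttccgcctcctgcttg
ARRDC4: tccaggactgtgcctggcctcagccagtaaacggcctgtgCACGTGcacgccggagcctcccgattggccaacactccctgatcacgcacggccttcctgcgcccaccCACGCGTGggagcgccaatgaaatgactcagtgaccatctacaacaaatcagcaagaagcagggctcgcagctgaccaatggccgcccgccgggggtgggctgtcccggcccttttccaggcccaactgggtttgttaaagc
Counting back from the start, the TXNIP stretch held CACGAGGGCAGCACGAG from base 88 to base 72, a pair of CACGNG matches with 5 bases between them. RefSeq lists 2 starts for TXNIP, and the window of the other one (chr1:145995695-145995994) held neither the pair nor a single CACGNG. Pairs of CACGNG with this spacing were searched on both strands, with each motif of the pair read in either direction. Such a pair was found in 27 of 35116 RefSeq windows of 300 bases (250 before to 50 after a start), or 0.0769%. The ARRDC4 window held CACGTG from base 210 to base 205 and the overlapping matches of CACGCGTG from base 142 to base 135, but no pair with that spacing. The palindrome CACGTG was present in 7.26% of all windows and CACGNG, of which it is a special case, in 30.5%. Windows were found for 8 of the 9 genes, ARRB1 being the gene without an entry. The MLX window held CACGTG from base 50 to base 45. The ARRB2 window and 1 window each of ARRDC2 and ARRDC3 held CACGNG, and ARRDC1 and MLXIP held none of these motifs. A match is a string of letters and not a measured binding site. Other forms of the carbohydrate response element were not searched. Textbook targets of MondoA or ChREBP, the other glucose-sensing partner of MLX, had a window in 10 cases. Of these 10, 2 held a pair with that spacing. The part of any motif in the ratios below was not tested.

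The libraries held 27317584 counts with glucose and 31345828 without. Values are given as counts per 1000000 (CPM) of the effective library size, which is the summed count corrected for composition. With 1 library per group there are no replicates, no test was made, and higher and lower describe these 2 libraries. Every interval is an exact 95% counting interval, which covers counting error only. A gene is called lower or higher without glucose when its interval lies wholly beyond 2-fold. By this rule 2 of the 9 genes were lower (TXNIP and ARRB1), against 6.2% of the 14239 measured genes, and 0 were higher, against 3.74%. The median log2 ratio (without over with glucose) of the 9 genes was -0.31, and that of all measured genes was 0.01. The share of counts on genes of small nucleolar RNAs, Cajal body RNAs and microRNAs also differed, at 5.82% with glucose and 7.98% without, and with these genes left out every ratio of the 9 genes stayed inside its counting interval. Renal lineage markers checked the labelled tissue: PAX8 was at 244 and 232 CPM, and LHX1 and CDH6 were lower without glucose. The leukocyte list had 2 of its 5 genes measured: LCP1, with 7042 and 9832 counts (253 and 320 CPM), and CD14, with 12 and 9 counts, while the defining PTPRC had 9 and 4. Of 4 endothelial markers KDR was measured, with 32 and 8 counts, and the list summed to 1.72 CPM with glucose and 0.390 without. Both red cell markers had at most 1 count. Of 5 fibroblast markers 4 were measured, at a summed 19.2 CPM with glucose and 9.30 without, and LUM was lower; the part of such differences in the ratios below was not tested. In bulk RNA, fewer cells that express a gene and less of its RNA per cell cannot be told apart.

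**Figure D1:**
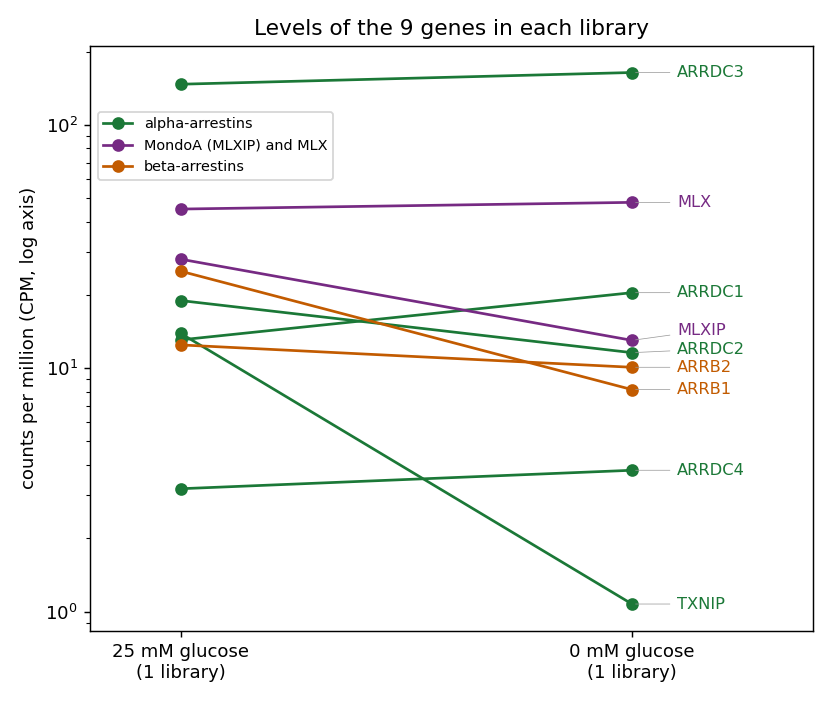
Level of each of the 9 genes in the 2 libraries, in CPM on a log axis; each line joins the 2 single libraries. The TXNIP line drops from 13.9 to 1.07 CPM and crosses that of ARRDC4, while ARRDC3 and MLX stay almost level.

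TXNIP had 387 counts with glucose and 33 without. These are 13.9 and 1.07 CPM, or 4.90 and 0.36 in the RPKM values that the authors deposited. The library without glucose was the low one, and the log2 ratio was -3.69 (interval -4.25 to -3.18). Only 27 of the 14239 measured genes had a lower ratio, which put TXNIP in place 28 from the bottom. Among the 2693 other genes with a mean CPM within 2-fold of that of TXNIP, 7 had a lower ratio. Of its 8 exons, 7 had more than 10 reads with glucose and 1 without; such exon numbers follow from the same counts and are given as a description here and for the genes below. In hg19, TXNIP spans 145438462 to 145442628 on chromosome 1, on the plus strand (the minus strand in GRCh38.p14), and no other gene model of the tables overlaps it. POLR3GL, the nearest gene model at a distance of 13608 bases, had 228 and 248 counts and a log2 ratio of -0.02 (interval -0.29 to 0.24). The difference seen for TXNIP was not shared by this neighbour. The lower TXNIP count, with 33 reads, sets the precision of its ratio, and the ratio was -2.84 when 1 CPM was added to both libraries.

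ARRDC4, a paralog of TXNIP, did not show this pattern. It had 89 counts with glucose and 117 without, or 3.20 and 3.81 CPM. Both libraries were low, and the log2 ratio of 0.25 had an interval (-0.16 to 0.67) that spanned 0. At this depth a difference of up to 1.59-fold in favour of the library without glucose lies inside the interval, and so does one of 1.12-fold the other way. In both libraries 2 of its 8 exons had more than 10 reads and the others at most 10 each. Its gene model spans 98503933 to 98517068 on chromosome 15 in hg19, and no other model of the tables overlaps it. The ratio of ARRDC4 exceeded that of TXNIP by 15.4-fold (interval 9.63 to 24.9), a contrast that does not depend on library scaling, since both genes were counted in the same 2 libraries.

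ARRDC3, an adaptor for the ubiquitination of membrane proteins, was the most abundant alpha-arrestin. It had 4089 and 5043 counts, or 147 CPM with glucose and 164 CPM without. The libraries were close, at 1.12-fold (interval 1.07 to 1.16), and all 8 exons had more than 10 reads in both. Per length, ARRDC3 supplied 63.6% of the summed level of the 5 alpha-arrestins with glucose and 68.6% without.

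ARRDC1, which buds microvesicles from the plasma membrane, had 364 counts with glucose and 628 without. Its level was 13.1 and 20.4 CPM, 1.56-fold more without glucose (interval 1.37 to 1.78), the largest ratio of the 9 genes and still within 2-fold. ARRDC2, a less studied member of the family, lay on the other side of 0, with 528 and 356 counts, or 19.0 and 11.6 CPM. Its log2 ratio of -0.71 had an interval of -0.91 to -0.51, also within 2-fold, and the number of its 9 exons with more than 10 reads was 8 with glucose and 5 without. The ratio of ARRDC1 was 2.56 times that of ARRDC2 (interval 2.11 to 3.10), with the 2 genes on opposite sides of 0. The ratio of TXNIP stood below that of each of the other 4 alpha-arrestins, the nearest being ARRDC2, with a 7.91-fold contrast (interval 5.37 to 11.9). The 5 genes together came to 55.6 CPM per kilobase with glucose and 57.6 without. Within this nearly constant sum, the share of TXNIP was 8.56% with glucose and 0.638% without, and that of ARRDC1 was 14.8% and 22.3%.

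**Figure D2:**
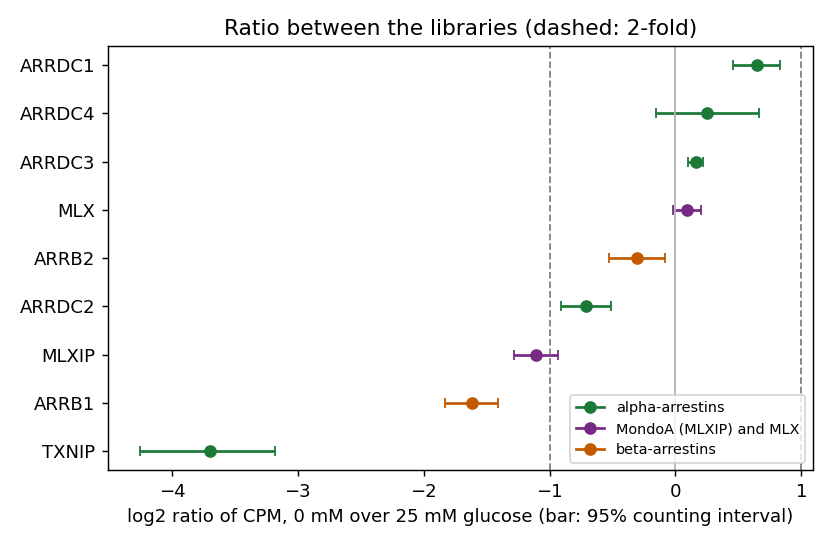
Log2 ratio of CPM, 0 mM over 25 mM glucose, for each gene, with its 95% counting interval as a bar; dashed lines mark 2-fold. The intervals of TXNIP and ARRB1 lie wholly below the lower line, that of MLXIP crosses it, and those of MLX and ARRDC4 span 0.

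The genes of the MondoA dimer differed from each other. MLXIP, which encodes MondoA, had 781 counts with glucose and 400 without, or 28.0 and 13.01 CPM. The library without glucose was the lower, with a log2 ratio of -1.11 and an interval of -1.29 to -0.93 that crossed the 2-fold line, so the gene was not called. With a bound of 1.5-fold in place of 2-fold it was called lower together with TXNIP and ARRB1, 3 of 9 genes against 12.6% of all measured genes, and 0 of 9 were higher, against 10.2%. The number of its 17 exons with more than 10 reads was 16 with glucose and 6 without. Its partner MLX had 1255 and 1476 counts, or 45.1 and 48.0 CPM, and its log2 ratio of 0.09 (interval -0.02 to 0.20) spanned 0. The contrast between the partners was 2.30-fold (interval 1.99 to 2.65). MLXIPL, which encodes ChREBP, the other glucose-sensing partner of MLX, had 0 counts with glucose and 3 without, where a count of 0 allows up to 3 counts. Longer gene models tended to have lower ratios in these libraries: MLXIP, at 5351 bases, falls in a class of 1424 genes by length with a median log2 ratio of -0.16, and TXNIP and MLX, at 2919 and 2554 bases, in a class with a median of 0.05. The part of length in these ratios was not tested. MLXIP spans 122516760 to 122628967 on chromosome 12 and MLX 40719078 to 40725221 on chromosome 17, both on the plus strand in hg19.

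The beta-arrestins stood in opposite order in the 2 libraries. ARRB1 had 697 counts with glucose and 251 without, or 25.0 and 8.16 CPM. It was lower without glucose by 3.07-fold (interval 2.65 to 3.56), and the number of its 16 exons with more than 10 reads was 13 and 7. ARRB2 had 347 and 310 counts, or 12.5 and 10.1 CPM, a log2 ratio of -0.31 (interval -0.53 to -0.08). The ratio of ARRB2 was 2.48 times that of ARRB1 (interval 1.999 to 3.08). Per length, ARRB1 made up 63.6% of the summed beta-arrestin level with glucose and 41.3% without, so that ARRB2 was the more abundant of the pair without glucose. Their sum was 18.0 CPM per kilobase with glucose and 9.03 without. In hg19, ARRB1 spans 74976482 to 75062873 on chromosome 11 (minus strand) and ARRB2 4613789 to 4624795 on chromosome 17 (plus strand).

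Levels of different genes were compared per kilobase of gene model. With glucose the order was ARRDC3 (35.4 CPM per kilobase), MLX (17.6), ARRB1 (11.4), ARRDC1 (8.22), ARRB2 (6.54), ARRDC2 (6.46), MLXIP (5.24), TXNIP (4.76) and ARRDC4 (0.787). The intervals of the neighbours ARRB2 and ARRDC2 overlapped there, as did those of MLXIP and TXNIP. Without glucose ARRDC3 (39.5), MLX (18.8) and ARRDC1 (12.8) led, followed by ARRB2 (5.30), ARRDC2 (3.95), ARRB1 (3.73), MLXIP (2.43), ARRDC4 (0.938) and TXNIP (0.368), and ARRDC2 and ARRB1 were the only neighbours whose intervals overlapped. TXNIP thus went from the neighbour of MLXIP to the last place, below ARRDC4. Reads of ARRDC1, ARRDC3 and MLX may include some from a gene model on the opposite strand that overlaps each of them (C9orf37, LOC100129716 and PSMC3IP), since the use of strand in counting is not given. C9orf37 had 344 and 316 counts, beside 364 and 628 for ARRDC1. Its log2 ratio was -0.27 (interval -0.49 to -0.04), and that of ARRDC1 was 0.64. The 2 models overlap only at their ends, since C9orf37 starts at 140509784 and ARRDC1 ends at 140509812 on chromosome 9. The part of shared reads was not tested. PSMC3IP had 454 and 318 counts, and LOC100129716 6 and 22. MIR326, inside ARRB1, had 0 counts with glucose and 1 without.

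**Figure D3:**
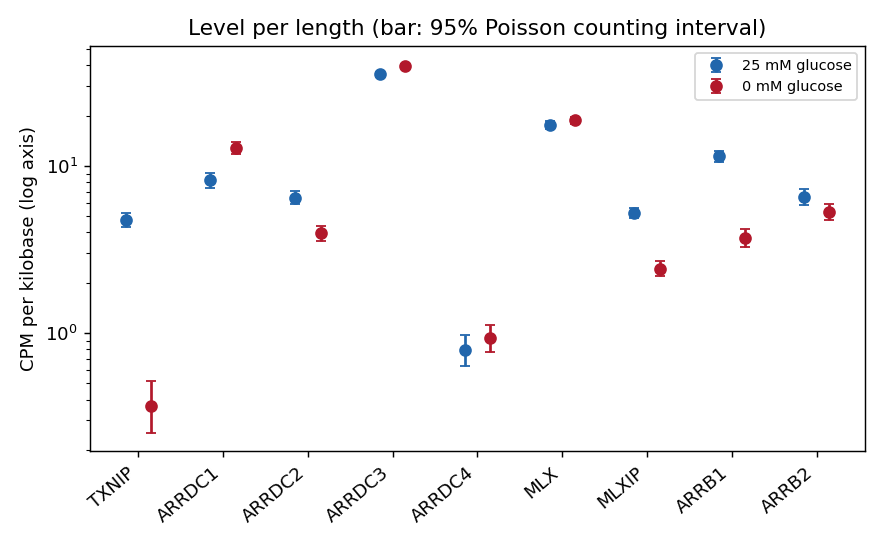
CPM per kilobase of gene model on a log axis for each gene with glucose (blue) and without (red); bars are 95% Poisson counting intervals. ARRDC3 is highest in both libraries, ARRB1 lies above ARRB2 with glucose and below it without, and TXNIP falls below ARRDC4.

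**Figure D4:**
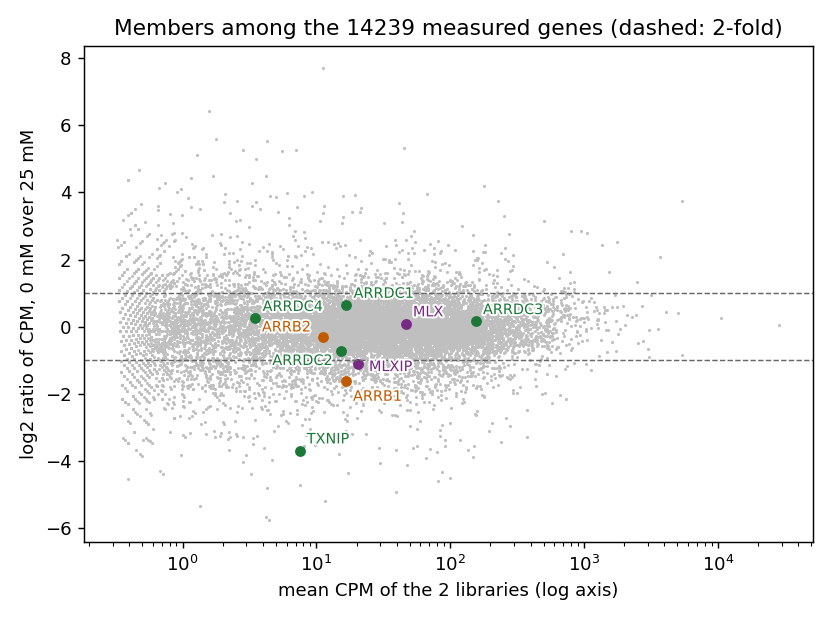
Log2 ratio against mean CPM (log axis) for the 14239 measured genes (grey), with the 9 genes in colour; dashed lines mark 2-fold. TXNIP, at -3.69, lies at the lower edge of the cloud, and the other genes lie between -1.62 and 0.64.

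The genes whose pattern was most like that of TXNIP were SEMA6B, ITGB6 and KLHL14, the 3 with the closest log2 ratio among the 2693 genes of similar mean CPM. This likeness rests on 1 ratio between 2 libraries. SEMA6B, a semaphorin, had a log2 ratio of -3.61, ITGB6, the integrin beta 6 subunit, one of -3.80, and KLHL14 one of -3.54.

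Other genes linked to this family were read from 8 lists, again beside the 6.2% of all measured genes that were lower and the 3.74% that were higher. Of 14 textbook targets of MondoA and ChREBP, 10 were measured, 5 were lower without glucose and 0 higher, with a median log2 ratio of -0.94. Besides TXNIP, the lower members were FASN (-1.29), ACACA (-1.14), ELOVL6 (-1.25) and SCD (-2.01), all enzymes of fatty acid synthesis that are also known targets of SREBP1. ARRDC4 was the highest member at 0.25, and TKT, the transketolase of the pentose phosphate pathway (0.16), RGS16 (0.04), KLF10 (-0.39) and ACLY (-0.74) were within 2-fold. PKLR, the liver and red cell pyruvate kinase, had 9 counts with glucose and 0 without, and G6PC, FGF21 and GPD1 had at most 5.

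The transcription factors related to MLX and MondoA diverged. Of 13 genes of the MAX and MLX network, MLX and MLXIP themselves among them, 11 were measured, 2 were higher and 1 lower. Their median log2 ratio was 0.13. MXD1, a repressor that dimerizes with MAX and MLX, had 4.16 CPM with glucose and 22.8 without, a log2 ratio of 2.45 (interval 2.17 to 2.75). MXI1, a MAX-binding repressor, was also higher (1.24), and MXD3 was lower (-1.99, interval -2.50 to -1.51). MYC had 152 and 294 CPM (0.95), with an interval of 0.90 to 1.01 that crossed 2-fold, and MAX itself was at 0.24.

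The ligases that alpha-arrestins recruit were nearly level. All 11 NEDD4-family ligases and adaptors were measured, 0 were called in either direction, and their log2 ratios ran from -0.26 (HECW1) to 0.21 (SMURF2), with ITCH, a ligase that targets TXNIP itself, at -0.07. Of 11 genes of the thioredoxin system, SRXN1, sulfiredoxin, was higher (1.36) and 0 were lower. TXN, the thioredoxin bound by TXNIP, had 141 and 184 CPM (0.39), and its reductase TXNRD1 had 643 and 1049 CPM (0.71). PRDX1, an abundant peroxiredoxin, lay on the other side of 0, at 668 and 421 CPM (-0.67, interval -0.70 to -0.63). Of 8 known partners and cargo of TXNIP and ARRDC3, SLC2A1, which encodes GLUT1, was higher (388 and 1195 CPM, log2 ratio 1.62). NLRP3, the inflammasome sensor that binds TXNIP, was lower (6.18 and 2.18 CPM, log2 ratio -1.50).

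Genes that work with the other arrestins did not pass the rule. Of the 13 genes for receptor kinases, AP2 subunits and clathrin, 0 were called in either direction. Their median log2 ratio was -0.38, with AP2A2 at -0.79 and AP2M1 at -0.56. The clathrin light chain genes CLTA (0.53, interval 0.47 to 0.60) and CLTB (0.11, interval -0.09 to 0.30) were the only members above 0. The kinase genes GRK4 (-0.71, interval -1.50 to 0.06) and GRK5 (-0.49, interval -1.19 to 0.20) had few counts, and their intervals spanned 0 and reached beyond 2-fold. Of 4 genes of ARRDC1 microvesicle budding, 0 were called, and TSG101, the ESCRT protein bound by ARRDC1, had 59.5 and 98.7 CPM (0.73). Of 7 other arrestin-fold genes, the 4 measured (VPS26A, VPS26B, DSCR3 and RGP1) lay between -0.20 and 0.16. ARRDC5 and the visual arrestins SAG and ARR3 had at most 3 counts in either library.

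**Figure D5:**
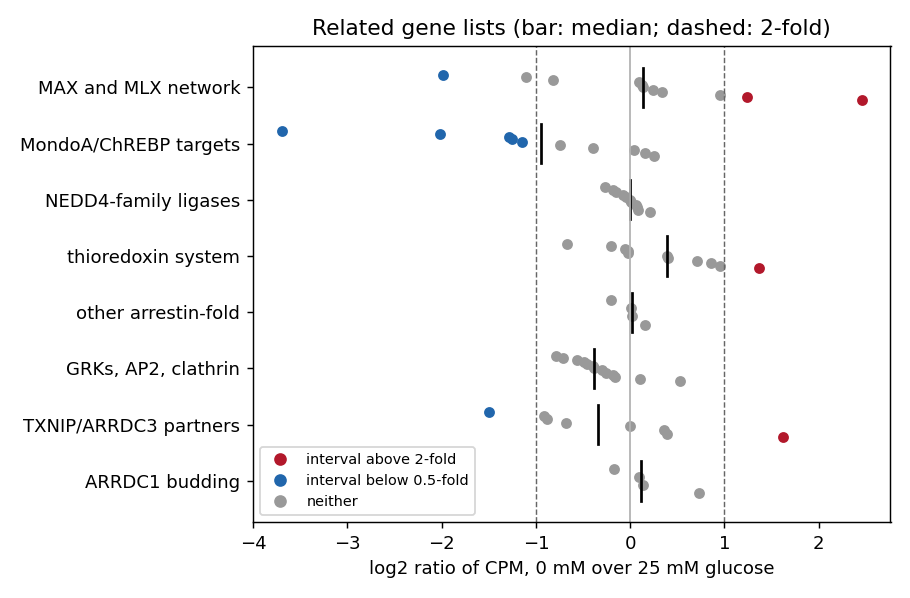
Log2 ratio of CPM, 0 mM over 25 mM glucose, for every measured gene of the 8 related lists; black bars are list medians, dashed lines mark 2-fold, and colours give the call. The targets of MondoA and ChREBP have 5 of 10 genes called lower by the 2-fold rule, and the 11 NEDD4-family genes cluster near 0.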

How the data were processed

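RNA of 2 cultures of 786-O cells, 1 per group, was taken up in Trizol, per the labels, and reads were mapped to hg19, per the submitters' processing notes. Aligner, counter, strand use and library preparation are unnamed in the sources used here. The deposited tables list a raw count, an RPKM, a length and exon numbers for 24364 gene models, per the file headers. The 538 rows that repeated the place and counts of another symbol were dropped and counts summed by symbol. Library sizes were scaled by TMM (edgeR 4.0.16, R 4.3.3) over genes with at least 20 counts, with factors of 1.02 with glucose and 0.981 without. Ratios and exact Clopper-Pearson, Poisson and conditional odds ratio intervals were computed in Python 3.11.15 (scipy 1.17.1). In ratios, 3 counts took the place of a 0. The procedure was tested on simulated data. The simulation drew Poisson counts with no variation between cultures, so it speaks to counting error only. Groups came from sample titles. The genes and lists were chosen with earlier results of these data known. The named genes were the 9 genes, list members past the rule, some but not all of those with the largest other ratios, and the 3 genes closest to TXNIP. Other list members and neighbouring genes are named for their role or position, after their values were seen. The 7 contrasts between related genes, family shares, exon counts and neighbouring genes were chosen after seeing the data. Promoter windows are from RefSeq (GRCh38.p14) and were matched by symbol. Some list members are not reported here.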

Additional observations from a re-analysis of the deposited data

How the results depend on the processing

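No paired analysis was possible because there was a single library in each group, which also means that none could be left out. Of 72 log2 ratios recomputed for the 9 genes, 71 stayed inside their counting intervals under other scalings (total counts, upper quartile, median of ratios), count minimums, handling of repeated rows, 1 added CPM and the removal of small RNA genes. The exception was TXNIP with 1 CPM added to both libraries (-2.84). The count minimums could not move these ratios, because the scaling was kept the same. Handling of repeated rows could hardly move them either, because each of the 9 genes is a single row. The values under these settings are therefore no check of the ratios. No ratio of the 9 genes changed sign under these alternatives. Scaling moved the median of all genes by at most 0.056. The size asked for set the counts: with intervals wholly beyond 1-fold, 5 of the 9 genes were lower and 2 higher, against 5200 and 5327 of all measured genes. With 1.5-fold, 1800 of all measured genes were lower and 1451 higher. Of 200 values recomputed for the related lists, 23 moved, 21 of them with the size of the rule, and the remaining ones were the median of the MondoA and ChREBP targets, which was -1.14 with at least 1 or at least 100 counts. The depth limits TXNIP without glucose and ARRDC4 in both libraries most.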

Other observations

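The 27 symbols whose RefSeq window held a pair of CACGNG-type motifs 5 bases apart, as TXNIP does, were read after the TXNIP values were known. Of these, 16 were measured, 1 was lower (TXNIP) and 2 were higher, against 6.2% and 3.74% of all measured genes, counts too small to set the group apart. HSPBAP1 was higher without glucose, at 7.29 and 25.9 CPM (log2 ratio 1.83), as was SIL1, a nucleotide exchange factor of the ER chaperone BiP, at 24.2 and 72.4 CPM (1.58). GFPT1, the entry enzyme of the hexosamine pathway, had 239 and 468 CPM (0.97), and P4HA1, a collagen prolyl hydroxylase subunit, 116 and 226 CPM (0.96), both with intervals that crossed 2-fold. Besides TXNIP, the measured genes with a ratio below 0 were HES1 (-0.46, interval -0.81 to -0.11), TIGD1 (-0.30, interval -0.78 to 0.18) and RAN (-0.14, interval -0.19 to -0.09). The median log2 ratio of the 16 genes was 0.63, against 0.01 for all measured genes. The PKLR window held the pair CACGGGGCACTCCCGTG, which starts 126 bases before the gene start, and PKLR had 9 counts with glucose and 0 without. Of the 10 textbook targets of MondoA and ChREBP with a window, 2 (TXNIP and PKLR) held such a pair.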
